A study of Eutrema salsugineum with 2 samples.

Results

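In Eutrema salsugineum, a salt-tolerant relative of Arabidopsis, 57 of the 17888 genes with reads formed the set described here. They had reads in both accessions studied and over 4-fold more in the Yukon (YK) accession than in the Shandong (SH) accession. A gene was a member when it belonged to the reference annotation, had at least 1 read in each library and 20 to under 500 reads in both together, and had a ratio of YK to SH reads of at least 4 after 0.5 reads were added to each count. Of the 6273 annotated genes with reads in both libraries and 20 to under 500 reads in all, 61 met the ratio, which is 0.972% of them. Of these 61, 4 are left out here. Among them are plant defensin 1.2A with 46 SH and 429 YK reads and plant defensin 1.2C with 6 and 217. The other 2 are peptide methionine sulfoxide reductase 3 with 1 and 86 and an eIF-2 family gene with 4 and 87. Other defensin genes were not looked for among the members, most of which have no name here. The members were thus chosen by their SH and YK reads, so the ratios below describe the set and were not tested.

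Each accession was represented by 1 library made from whole rosettes of well-watered plants aged 4 weeks, which grew under a 12 h photoperiod with 22 °C by day and 20 °C by night and were harvested halfway through the night. The labels name no transgene or treatment for either accession, and the submitters describe SH as the accession with thicker leaves, less rosette dry weight and less drought tolerance. Each library was made from pooled plants and gave 1 column of reads (482275 reads on genes in SH and 431705 in YK), so no difference has a replicate check in these libraries and all intervals cover counting error only. Because the tissue was a whole rosette, fewer cells of a type and less RNA per cell cannot be told apart. Among the defining genes of photosynthetic tissue that carry a name here, the photosystem subunit genes PSAP and PSBX had 441 and 492 reads in SH and 327 and 560 in YK, and PSAE-2 had 28 and 42, so leaf transcripts were present in both libraries. A further PSBX locus had 0 SH and 1 YK reads. Markers of seed, pollen and root tissue were not checked.

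Accessions of a plant species that have been apart for long carry sequence changes in the regulatory DNA next to a gene, in regulators encoded elsewhere, and in the number of copies of a gene. Each kind of change can raise or lower the amount of an mRNA while the gene remains active in both accessions, which sets such genes apart from genes that are silent or missing in one of them. Since 30 of the 57 members had only 1 to 4 SH reads, activity in SH was not established for every member. A rosette at night lives on starch stored during the day and continues to grow, so the transcripts sampled were those of leaves without light.

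The set was led by Thhalv10021522m.g, whose best A. thaliana hit is AT3G16660, a gene of the family named for the pollen allergen Ole e 1 and for extensins. Proteins with this domain were first known from olive pollen, where they cause allergy, and extensins are structural proteins of the plant cell wall. Thhalv10021522m.g had 1 SH read and 244 YK reads. It lies on scaffold 13 from 3497784 to 3499172. Its log2 ratio of YK to SH was 7.35 with 0.5 reads added, and the 95% Clopper-Pearson interval of the plain ratio ran from 5.44 to 13.24. This gene was the member with the widest separation of the libraries and the only member with more than 100 reads whose SH count was a single read. By reads it ranked at position 224 of all genes in YK and at 13987 in SH, a rank shared by all genes with 1 read. The pair of primers designed for its qRT-PCR assay is shown because this is the member for which the sources used here give an assay, whose result is not used here:
Thhalv10021522m.g forward primer: gcctcaccgcaccgttaa
Thhalv10021522m.g reverse primer: ggactaaactgaagaggccagaga
The primers are 18 and 24 bases long, are written 5′ to 3′ and have no part in capitals.

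A second member with an A. thaliana hit, Thhalv10002341m.g, had 3 SH and 17 YK reads, so the log2 ratio was 2.32 with an interval from 0.71 to 4.92. Its hit is AT2G26600, and it lies on scaffold 31 from 211677 to 213821, where it was the only annotated gene with reads in both libraries and 20 to under 500 reads in all. For the other 55 members no name or hit was given in the sources used here, and they are called by their identifiers. No member could therefore be placed in a pathway or a functional group by name.

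Next to the Ole e 1 family gene, 9 further members had intervals that lay farthest from equal reads. Thhalv10005114m.g, on scaffold 6 from 1383135 to 1383693, had 2 SH and 52 YK reads, so the log2 ratio reached 4.39 (interval 2.78 to 7.78). Thhalv10017036m.g, on scaffold 10 from 9653500 to 9656584, had 4 and 68 reads, a log2 ratio of 3.93 (interval 2.66 to 6.0). Thhalv10013057m.g, on scaffold 2 from 3818273 to 3822458, had 7 and 68 reads, a log2 ratio of 3.19 (interval 2.16 to 4.65). These genes had nearly all of their reads in YK, and the lower ends of their intervals lay above a 4-fold difference. The intervals come from the same reads that chose the genes and do not allow for that choice. Thhalv10021788m.g, on scaffold 13 from 4720303 to 4721198, reached a similar ratio from far fewer reads, 1 in SH and 25 in YK, and its interval was accordingly wide (log2 ratio 4.09, interval 2.03 to 10.00). Thhalv10005022m.g, on scaffold 6 from 953728 to 955096, was the opposite case: with 65 reads in SH and 344 in YK its log2 ratio was only 2.40, but the interval was narrow, from 2.02 to 2.81. With the Ole e 1 family gene, these were the 6 members whose lower bound exceeded 4-fold, and among all 6273 genes of the comparison 0.159% had such a bound on the YK side, the left-out genes included.

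The other 4 of these 9 genes were well covered and had moderate ratios. Thhalv10025764m.g had 44 SH and 230 YK reads, and Thhalv10013908m.g had 26 and 140. Thhalv10020508m.g had 83 and 372 reads, and Thhalv10010546m.g had 15 and 87. Their log2 ratios were 2.37, 2.41, 2.16 and 2.5, and the lower bounds of the intervals lay between 1.74 and 1.92, short of a 4-fold but well past a 2-fold difference.

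**Figure D1:**
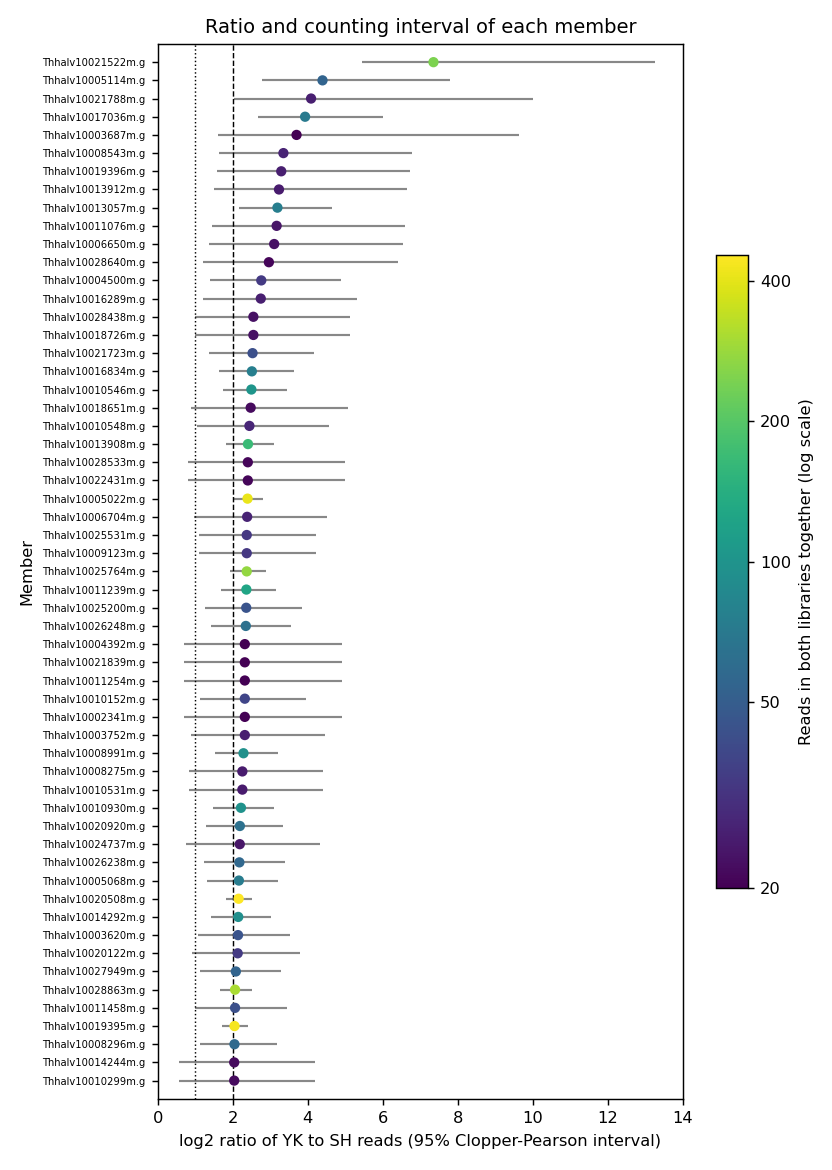
Log2 ratio of YK to SH reads for each of the 57 members (points, 0.5 reads added, coloured by the reads of both libraries together) with the 95% Clopper-Pearson interval of the plain ratio (lines). The dotted line marks a 2-fold and the dashed line a 4-fold difference; 39 intervals lie above the dotted line and 6 above the dashed line, and the intervals shorten as reads increase.

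The members differed widely in how firmly their ratio was bounded. Of the 57 members, 39 had a lower bound over 2-fold (0.988% of the 6273 genes had one on the YK side) and 18 did not. Since the same reads chose the members, a share above that of all genes follows from the rule. The ratio was at least 16 for 3 members, from 8 to under 16 for 8, from 5 to under 8 for 27 and under 5 for 19. The SH count limited the precision: 30 members had 1 to 4 reads in SH, 9 had 5 to 9 and 18 had 10 or more. Among the 39 members with under 10 SH reads the median log2 ratio was 2.40 and the intervals had a median width of 4.11 on the log2 scale, and 21 of them had a lower bound over 2-fold. Among the 18 members with 10 or more SH reads the median log2 ratio was 2.21, the median width was 1.64, and all 18 had such a bound. With this many SH reads a ratio of at least 4 nearly fixes such a bound, so that outcome follows from the rule. Over the whole set the median log2 ratio was 2.37, against 0.00 for all 6273 genes of the comparison.

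**Figure D2:**
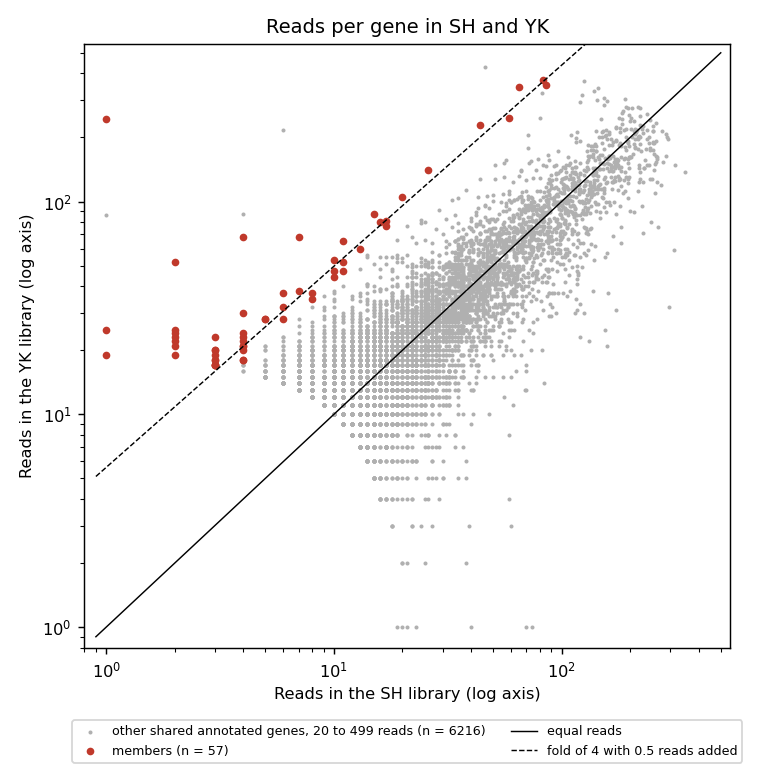
Reads in SH (x axis) and YK (y axis), both on log axes, for the 57 members (red) and the other 6216 annotated genes with reads in both libraries and 20 to under 500 reads in all (grey). The solid line marks equal reads and the dashed line a 4-fold ratio; 30 members lie at 1 to 4 SH reads, and a few reach beyond 200 YK reads. Grey points above the dashed line are the 4 genes left out of the set.

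The lower limit of 20 reads and the ratio of 4 decide which genes are listed at the edge. Just inside the ratio were Thhalv10010299m.g and Thhalv10014244m.g, each with 4 SH and 18 YK reads, Thhalv10008296m.g with 11 and 47, and Thhalv10019395m.g with 85 and 353. Just outside it were Thhalv10014739m.g with 82 and 325, Thhalv10003586m.g and Thhalv10008634m.g with 5 and 21 each, and Thhalv10025749m.g with 14 and 56. The log2 ratios ran from 2.04 to 2.05 inside and from 1.96 to 1.98 outside, while the narrowest of these intervals, that of Thhalv10019395m.g, ran from 1.71 to 2.41. The edge thus separates genes that counting error does not separate. Above the upper limit of reads there was 1 more gene of this kind, Thhalv10019355m.g, with 168 SH and 699 YK reads.

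Few reads were common in the set. The members had a median of 34 reads in both libraries together, against 45 for the 6273 genes of the comparison, and 35 of the 57 had fewer than 50 reads (61.4%, against 54.3% of the comparison). Of the 1690 genes with 20 to under 30 reads, 26 were members, or 1.54%, and 24 genes, or 1.42%, met the same rule in the opposite direction. With 30 to under 50 reads there were 9 members (0.524% of 1716 genes) and 22 genes higher in SH (1.28%). With 50 to under 100 reads there were 13 members and 2 of the left-out genes on the YK side, together 0.978% of that class. On the SH side there were 13 genes (0.847%). With 100 to under 200 reads there were 3 members (0.358%) and 7 genes higher in SH (0.836%). With 200 to under 500 reads, 6 members and 2 of the left-out genes, together 1.61% of that class, were higher in YK and 3 genes, or 0.605%, were higher in SH. These class sizes are small and the differences between the directions were not tested. In all, 69 genes (1.10%) were higher in SH by the same rule.

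**Figure D3:**
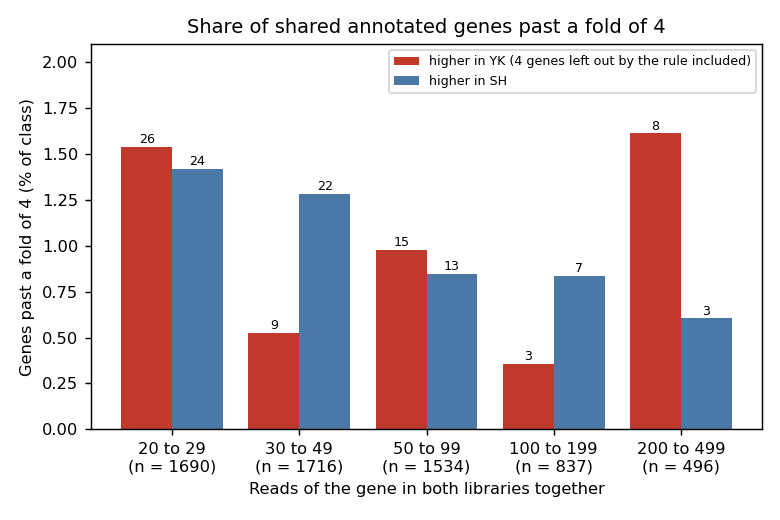
Share of annotated genes with reads in both libraries that were past a 4-fold ratio (y axis, % of the class), by the reads of the gene in both libraries together (x axis), for genes higher in YK (red, the 4 left-out genes included) and higher in SH (blue). Numbers above the bars are genes; the YK share is 1.54% at 20 to under 30 reads, is 0.358% at 100 to under 200 reads and is 1.61% at 200 to under 500 reads.

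The reads were unevenly spread over the members. The set held 668 reads in SH, or 0.139% of that library, and 3741 in YK, or 0.867%. The 6 members with the most YK reads accounted for 1791 of the 3741, or 47.9%, and for 337 of the 668 SH reads, or 50.4%. Among them were Thhalv10020508m.g, Thhalv10019395m.g and Thhalv10005022m.g, Thhalv10028863m.g with 59 SH and 248 YK reads, and the Ole e 1 family gene, which alone supplied 6.52% of the YK reads of the set and 0.150% of its SH reads. The other members had 17 to 140 reads each in YK.

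Levels per length were given as RPKM, that is reads per kilobase of the locus, introns included, and scaled to the reads on genes in units of 1000000. In YK the members had a median of 33.6 RPKM, between a lowest value of 6.57 (Thhalv10006650m.g) and a highest of 1460 (Thhalv10019395m.g). In SH the median was 4.20 RPKM, between 0.443 (Thhalv10003687m.g, with 1 read) and 315 (Thhalv10019395m.g). The 6273 genes of the comparison had medians of 24.2 RPKM in YK and 22.3 in SH, although their median count was 23 reads in each library. Scaling to the reads on genes raises YK over SH by a factor of 1.12 relative to the unscaled ratios. By level per length in YK, the next highest members were Thhalv10005022m.g at 582 RPKM, the Ole e 1 family gene Thhalv10021522m.g at 407 and Thhalv10028863m.g at 293; in SH they stood at 98.4, 1.49 and 62.3 RPKM. The 2 members with the largest SH levels, Thhalv10019395m.g and Thhalv10005022m.g, were thus abundant in both accessions, whereas the Ole e 1 family gene was abundant in YK and close to the limit of detection in SH, since a count of 0 would allow up to 3 counts, or 6.22 RPM, in that library.

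The length of a locus was not used to choose the members. Their median length was 2400 bp, against 2216 bp for the genes of the comparison and 1785 bp for the 69 genes higher in SH by the same rule. Loci under 1000 bp made up 7 of the 57 members (12.3%), 7.11% of the genes of the comparison and 19 of the 69 genes higher in SH (27.5%). The 10 annotated genes with 20 to under 500 reads that were found in YK alone had a median length of 1387 bp. With 20 to under 100 reads, the medians were 2440 bp for the 48 members in that range, 2317 bp for the comparison and 1850 bp for the SH side. The longest member, Thhalv10006650m.g, spans 7403 bp on scaffold 5 from 2486513 to 2493915 and had 2 SH and 21 YK reads. The shortest, Thhalv10005114m.g, spans 559 bp and is the gene with the second largest ratio, and Thhalv10019395m.g, with the largest level per length, spans 560 bp. The shortest locus was therefore among the members with the clearest difference. Thhalv10019395m.g lay just inside the ratio and stood out by its level, which is divided by length. The median length of the set was above that of the comparison.

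The members lay on 12 of the 31 scaffolds that hold genes of the comparison. Scaffolds 6 and 13 each had 8 members, of 530 and 609 genes of the comparison, and scaffolds 5 and 16 each had 7, of 775 and 259. The share was thus 2.70% on scaffold 16 and 0.582% on scaffold 2, where 5 of 859 genes were members. The largest scaffolds without a member were 19, 8, 22, 11, 4 and 15, with 176, 153, 134, 132, 127 and 114 genes. How evenly the members spread over the scaffolds was not tested. Of the 45 pairs of consecutive members along a scaffold, 6 were less than 100 kb apart and 1 was less than 10 kb apart, and the median gap was 754 kb.

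The single close pair was Thhalv10019395m.g and Thhalv10019396m.g on scaffold 9. Thhalv10019395m.g runs from 4916985 to 4917544 and had 85 SH and 353 YK reads. Thhalv10019396m.g runs from 4919752 to 4922217, 2207 bp away with no other gene with reads between them, and had 2 and 24 reads, a log2 ratio of 3.29 (interval 1.57 to 6.71). The intervals of the pair overlap, as that of Thhalv10019395m.g runs from 1.71 to 2.41. Neither had another gene with at least 10 reads within 10 kb. The next closest members were Thhalv10010531m.g and Thhalv10010930m.g on scaffold 16, 28.8 kb apart with 5 genes with reads between them. They had 4 and 21 reads and 17 and 81 reads, in SH and YK.

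The genes around the members were looked at next. Within 10 kb of a member locus lay 112 other genes with at least 10 reads in both libraries together, beside 45 of the 57 members. Neighbours that were members themselves, the 2 genes of the close pair, are not among the 112, so the rule took genes far higher in YK out of this group and the group is only described. Their median log2 ratio of YK to SH was 0.00, the same as the 0.00 of all 10036 genes with at least 10 reads. At least 2-fold more reads in YK were found for 12 of the 112 (10.7%, against 10.7% of all genes) and at least 2-fold more in SH for 13 (11.6%, against 10.7%). With the 2 members kept, the median of the 114 genes was also 0.00, and 14 (12.3%) had at least 2-fold more reads in YK. These shares moved with the scaling and with the reads required. Scaled to total reads, 20 of the 112 were at least 2-fold higher in YK (17.9%, against 13.9% of all genes) and 11 in SH (9.82%, against 7.90%). Among the 78 with at least 20 reads, 3 were at least 2-fold higher in YK (3.85%, against 7.54% of all such genes) and 8 in SH, and with the 2 members kept there were 5 of 80 (6.25%) in YK. Around the Ole e 1 family gene the log2 ratios of its 4 neighbours ran from -0.82 to 0.49.

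Some neighbours differed in the direction of the member and others against it. Beside Thhalv10011076m.g (2 SH and 22 YK reads), a gene 9971 bp away, Thhalv10010734m.g, had 1 SH and 16 YK reads, a log2 ratio of 3.46 (interval 1.31 to 9.39). Beside Thhalv10010930m.g, Thhalv10010340m.g had 7 and 26 reads, a log2 ratio of 1.82 (interval 0.65 to 3.34). The opposite was seen next to Thhalv10013057m.g, where Thhalv10014729m.g, 3030 bp away, had 15 reads in SH and 0 in YK, so that the interval of the log2 ratio ended at -1.84, and next to Thhalv10028640m.g (2 and 19 reads), where Thhalv10028519m.g had 15 and 2. Of the 21 neighbours that lay within 500 bp of a member or overlapped it, 3 had at least 2-fold more reads in YK. Another 6 had at least 2-fold more in SH. Among all genes with at least 10 reads the share was 10.7% in either direction. The median log2 ratio of the 21 genes was -0.17, and a lean of so few genes to either side was not tested. One of the 6 higher in SH was Thhalv10010748m.g, 8 bp from Thhalv10010546m.g. It had 28 SH and 13 YK reads, while the member had 15 and 87. The neighbours named here were chosen after their values were seen.

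**Figure D4:**
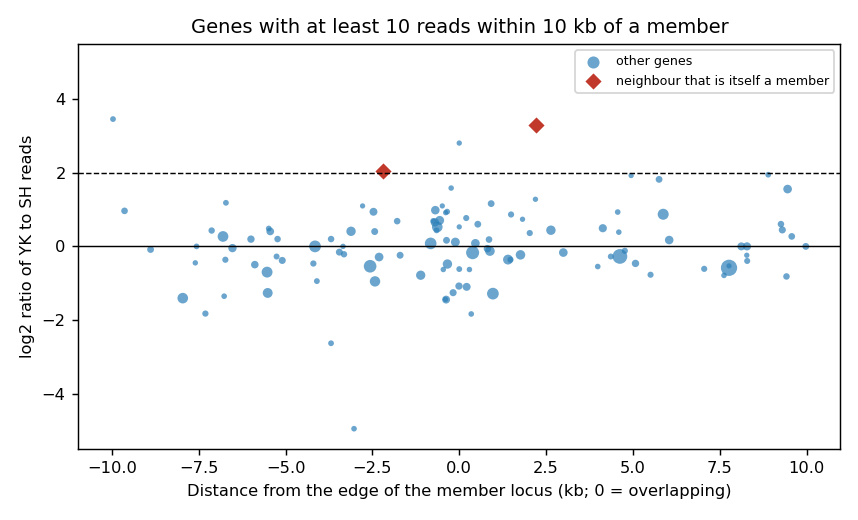
Log2 ratio of YK to SH reads (y axis, 0.5 reads added) of genes with at least 10 reads against their distance from the edge of the member locus (x axis, kb, 0 for overlapping loci); larger points have more reads. Blue points are the 112 other genes, centred on 0.00, and red diamonds are the pair Thhalv10019395m.g and Thhalv10019396m.g, each plotted beside the other.

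The libraries were not strand-specific, so a read in a stretch shared by overlapping loci cannot be assigned by its strand. The locus of 5 of the 57 members overlapped another locus with reads, and the other 52 did not. Overlaps were not counted for the other genes of the comparison, so whether this share is usual is not known here. Among the 5 was Thhalv10025764m.g (44 and 230 reads), whose partner Thhalv10025198m.g had 1 SH and 10 YK reads, a log2 ratio of 2.81 (interval 0.51 to 8.76). The part of this overlap in the ratio was not tested. Reads that fitted several places equally well had been removed before counting, and reads of both accessions had been aligned to the SH genome; the part of either step in these ratios was not tested.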

How the data were processed

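One library of each accession, SH and YK, was sequenced by pyrosequencing. The methods describe 4 biological replicates of 5 rosettes, and the submitters' design 1 replicate from 5 plants; the table holds 1 column per accession. The authors trimmed the reads, aligned them to the SH genome with GMAP (GSNAP in the submitters' notes), added loci assembled by Cufflinks with BEDTools v2.17.0 and used HTSeq v0.5.4p5 to count uniquely mapped reads. The deposited values are raw counts without normalization. The deposited fold ratio, p-value and adjusted p-value are the authors' comparison made with DESeq v1.14.0 and were not used. A blank row was left out.

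The rule uses raw reads, so the counts entered the ratios unscaled. Median-of-ratios size factors were 1 in SH and 1 in YK, whereas scaling to total reads would raise every ratio by a factor of 1.12. Intervals are 95% Clopper-Pearson intervals of the YK share of a gene's reads, turned into a ratio. They and the floor of 3 counts (6.22 RPM in SH, 6.95 in YK) cover counting error only, since each accession has 1 library. Reads without molecular identifiers are not independent molecules, so the intervals may be too narrow even for that error. With 1 library per group no test between accessions was run. The interval and ratio rule was tried on simulated counts with counting error alone, which cannot show how it behaves under variation between plants or libraries. Alternatives were other scalings (TMM of edgeR v4.0.16, total reads), reads added, read limits and folds; 5 were added after seeing the data (leaving out overlapping loci, counting the left-out genes, leaving out the leading gene, and keeping members among the neighbours at 10 and at 20 reads).

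Members, lists and rules were chosen with earlier results of these data known. Genes named are those with a hit in the paper's gene tables (the table of all genes was used for its first 1998 of 17888 genes), the 10 members with intervals farthest from 0, the 5 with the most reads, 4 on each side of the ratio, the longest and shortest, members within 10 kb of each other, and others said to be chosen after their values were seen or given for an extreme level. None of the IDs matched the RefSeq gene table (0 of 17888), so functional groups by name were not formed. The scripts used Python v3.11.15, pandas v2.3.3 and scipy v1.17.1.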

Additional observations from a re-analysis of the deposited data

How the results depend on the processing

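The number of members moved with the limits of the rule and with scaling to total reads. TMM scaling gave the same 57 genes. The median-of-ratios factors were 1 in both libraries, so that scaling repeats the rule on raw reads. Total reads gave 77 genes and total reads without the 5 most abundant genes 64. Both raise every ratio, so all 57 had to remain. Total reads raise every log2 ratio by 0.16, which also moves the median of all genes, and turn the split at 4-fold from 61 genes higher in YK and 69 in SH to 81 and 54. A minimum of 10 reads gave 146 genes, 30 reads 31 and 50 reads 22. Requiring 4 reads in SH left 37, a fold of 3 gave 126 and a fold of 8 left 11. A lower bound over 2-fold held for 58 genes, 39 of them members, and a bound over 4-fold for 6. Adding 0 or 1 read gave 70 and 55, and without overlapping loci 52 remained. The median log2 ratio of the members stayed between 2.27 and 2.53, that of the neighbours between -0.05 and 0.16, and the length was 2440 bp for members with under 100 reads. No paired analysis was possible because each accession has 1 library, and for the same reason no replicate could be left out. With so few reads per gene, members with 1 to 4 SH reads have ratios that are known only within wide bounds.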
